A study of Mus musculus with 12 samples.

Results

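Alternative activation of macrophages was followed through 5 marker genes chosen by name, Chil3, Mrc1, Cd163, Il4ra and Il10, in a NanoString immune table of 750 genes from mouse peritoneal ascites. All 5 of 5 were measured in all 12 samples. NanoString counts single RNA molecules with colour-coded probes, and the table holds log2 values that the authors normalized. KTFAKKD samples (n = 3) came from mice given tumour cells labelled KTFAKKD, with no agent. KTFAKWT samples with FAK inhibitor (n = 3) came from mice given KTFAKWT tumour cells and gavaged with VS4716 at 100 mg per kg, 2 times a day. KTFAKWT samples with vehicle (n = 3) came from mice given KTFAKWT tumour cells and gavaged 2 times a day with vehicle, and KTFAKWT samples (n = 3) had no agent. FAK is focal adhesion kinase, a tyrosine kinase of cell adhesion sites, and the labels do not expand KD. Every mouse had received 5000000 tumour cells into the peritoneal cavity, ascites cells were recovered on day 21, and RNA came from 2000000 of them, so that tumour and host cells were measured together. The vehicle samples carry KTFAKWT in their titles but KTFAKKD as their genotype; they were grouped by title. The labels used here give no strain or age, do not tell whether the 3 replicates are from separate mice, and do not say whether each line is a single clone. P-values therefore measure the spread between these samples, which may be technical.

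Alternative activation is the state that macrophages enter when interleukin-4 or interleukin-13 binds a receptor containing the Il4ra chain and the transcription factor STAT6 is switched on. Mouse macrophages in this state make the chitinase-like protein Ym1 (Chil3), arginase 1 and the mannose receptor CD206 (Mrc1). CD163, a scavenger receptor for haemoglobin bound to haptoglobin, and the anti-inflammatory cytokine interleukin-10 accompany macrophage states that limit inflammation, and tumour ascites is rich in such cells. None of these genes belongs to macrophages alone: neutrophils and their precursors can hold Chil3, and B and T cells can hold Il10.

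The 5 genes did not move as a block. Chil3 fell with the FAK inhibitor, by 3.46 on the log2 scale against vehicle, but in KTFAKKD against KTFAKWT its change of 0.26 ± 0.81 (log2, SE, n = 3 each) did not pass. Mrc1 rose in both comparisons as deposited, by 1.34 ± 0.18 in KTFAKKD and by 1.19 ± 0.18 with the inhibitor. Cd163 was level as deposited in all 4 groups and lower in both comparisons once samples were set to a common panel median. Il10 rose by 2.36 ± 0.28 in KTFAKKD samples and kept a rise of 1.31 ± 0.25 at a common panel median. Il4ra rose in both comparisons as deposited, by 0.61 ± 0.13 and 0.65 ± 0.13, and at a common panel median fell in KTFAKKD and did not pass with the inhibitor.

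The authors' scaling differs between groups, and each of the 5 genes is therefore given on more than 1 scale. Back on the linear scale, 100% of genes in a sample were whole multiples (tolerance 0.01) of that sample's own factor, so whole counts could be recovered, and they summed to between 588778 and 760152 per sample. The factor was 1.29 to 1.66 in KTFAKKD and 1.13 to 1.25 in inhibitor samples, against 0.719 to 0.896 in vehicle and 0.659 to 0.825 in KTFAKWT samples, so that KTFAKKD and inhibitor samples did not overlap their controls. The median gene stood 0.95 higher in KTFAKKD than in KTFAKWT samples and 0.54 higher with the inhibitor than with vehicle. Beside the deposited scale, a panel-median scale shifts every sample to the same median gene. A lineage scale sets each sample to the mean log2 value of 8 measured macrophage lineage genes (Csf1r, Cd68, Emr1, Fcgr1, Cd14, Itgam, C1qa and C1qb).

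Macrophage genes were abundant in every group. The summed normalized counts of the 8 lineage genes ran from 42356 to 52542 in KTFAKKD and from 27772 to 31135 in inhibitor samples, against 14785 to 17993 in vehicle and 12590 to 15209 in KTFAKWT samples. Csf1r, through which the growth factor CSF1 acts on macrophages, had the largest log2 fold changes of the 8, 2.20 ± 0.12 in KTFAKKD and 1.86 ± 0.12 with the inhibitor. In KTFAKKD all 8 rose as deposited (65.1% of all genes), and at a common panel median 4 were higher and 0 lower (23.6% and 34.5% of all genes). With the inhibitor 5 rose and 0 fell as deposited (49.2% and 10.5%), and at a common panel median 3 were higher and 3 lower (17.7% and 28.8%), with a median of -0.24 against -0.20 for all genes. The 3 lower ones were Itgam, an integrin chain of myeloid cells (-0.85), Fcgr1, a receptor for antibodies (-0.69), and Cd68, a protein of lysosomes (-0.35). Cd14 was the only lineage gene near the lower end of counting, with 10 to 26 recovered counts. In such mixtures fewer cells of a type and less RNA per cell cannot be told apart.

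In KTFAKKD against KTFAKWT, limma called 3 of the 5 genes higher and 0 lower as deposited, where 65.1% of all 750 genes were called higher and 9.47% lower. At a common panel median 1 was higher and 2 were lower, beside 23.6% and 34.5% of all genes. Set to the lineage genes 1 was higher and 2 were lower, beside 10% and 49.6%. With the inhibitor against vehicle, 3 were higher and 1 lower as deposited (49.2% and 10.5% of all genes). On the panel-median scale 1 was higher and 2 were lower (17.7% and 28.8%), and set to the lineage genes 0 were higher and 2 lower (17.3% and 26.4%). Between vehicle and untreated KTFAKWT samples 0 of the 5 and 0 of all 750 genes were called as deposited (0% in either direction), while 93 genes had an unadjusted p under 0.05, and 1 gene was called when only those groups were fitted. The median log2 fold change of the 5 was 0.61 in KTFAKKD and 0.65 with the inhibitor, against 0.95 and 0.54 over all genes.

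**Figure D1:**
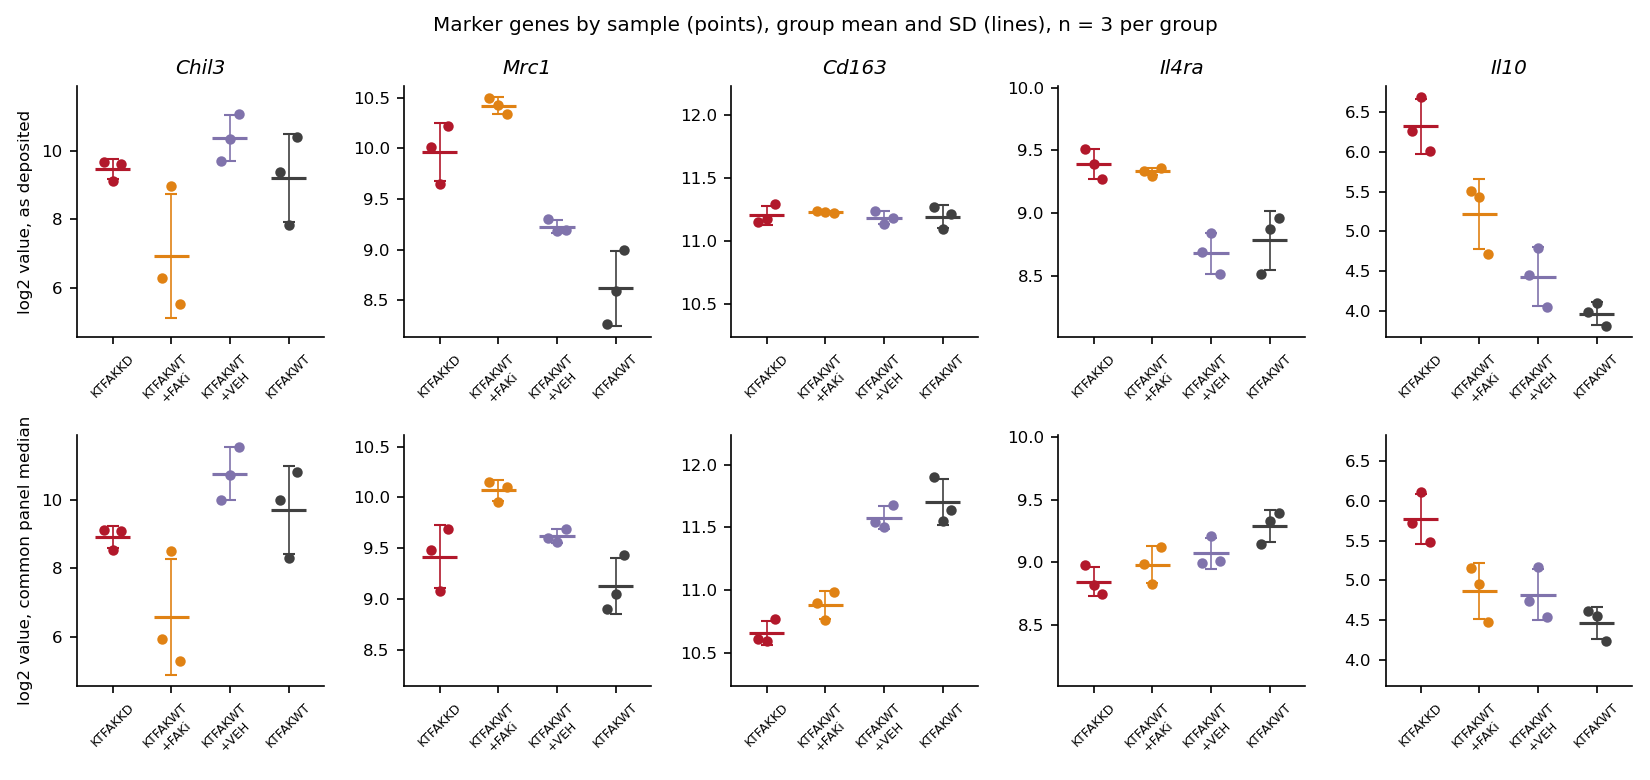
Log2 values of the 5 genes in each sample (points) with group means and SDs (lines, n = 3), as deposited in the upper row and after shifting samples to a common panel median in the lower row; the axis range differs between genes and is shared within a gene. Cd163 is level in the upper row and steps down in KTFAKKD and inhibitor samples in the lower one, Il4ra turns round between rows in KTFAKKD, and Chil3 is low in inhibitor samples 4 and 6 in both.

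Il4ra encodes the chain that receptors for interleukin-4 and interleukin-13 share. Its log2 value was 9.51, 9.39 and 9.27 in KTFAKKD samples, against 8.51, 8.87 and 8.96 in KTFAKWT samples. Inhibitor samples had 9.33, 9.30 and 9.36, against 8.69, 8.84 and 8.51 in vehicle samples. Neither pair of groups overlapped. The order from low to high was vehicle, KTFAKWT, inhibitor and KTFAKKD, with overlap within the lower and within the upper pair. The adjusted p was 0.00113 in KTFAKKD and 9.15e-04 with the inhibitor (limma).

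The recovered counts behind Il4ra ran the other way in KTFAKKD. They were 513, 404 and 479 there, against 554, 605 and 604 in KTFAKWT samples. With the inhibitor they were 569, 554 and 528, against 551, 511 and 508 with vehicle. At a common panel median Il4ra therefore had -0.44 ± 0.12 in KTFAKKD (adjusted p = 0.00616) and -0.09 ± 0.12 with the inhibitor (adjusted p = 0.57). After quantile normalization, which gives every sample the same distribution of values, Il4ra did not pass in KTFAKKD (-0.06 ± 0.11, adjusted p = 0.676). Set to the lineage genes it had -0.97 ± 0.13 in KTFAKKD (adjusted p = 1.99e-05) and -0.07 ± 0.13 with the inhibitor (adjusted p = 0.684). The difference between these changes was -0.90 ± 0.19 on the lineage scale (adjusted p = 0.00189), but -0.35 ± 0.17 at a common panel median (adjusted p = 0.146) and -0.04 ± 0.18 as deposited (adjusted p = 0.879). Over all 12 samples Il4ra was the 30th least variable of 750 genes on the panel-median scale, with an SD of 0.20 where the median gene had 0.48.

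Mrc1, the mannose receptor CD206, binds and takes up mannose-rich glycoproteins. KTFAKKD samples had log2 values of 10.02, 9.65 and 10.22, against 8.27, 8.59 and 9.001 in KTFAKWT samples. Inhibitor samples had 10.50, 10.43 and 10.34, against 9.30, 9.19 and 9.20 in vehicle samples. All 4 groups were separate from their neighbours as deposited, in the order KTFAKWT, vehicle, KTFAKKD and inhibitor. The adjusted p was 4.04e-05 in KTFAKKD and 1.25e-04 with the inhibitor. Vehicle samples also lay above untreated KTFAKWT samples, by 0.61 ± 0.18, without passing (adjusted p = 0.195).

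Mrc1 had its highest recovered counts with the inhibitor, at 1275, 1210 and 1038 against 839, 651 and 816 with vehicle. In KTFAKKD they were 727, 484 and 922, which overlapped the 467, 497 and 621 of KTFAKWT samples. On the panel-median scale the inhibitor change was 0.45 ± 0.16 (adjusted p = 0.0376) and the groups stayed apart, while KTFAKKD had 0.29 ± 0.16 (adjusted p = 0.146) and overlapped KTFAKWT. The inhibitor call at a common panel median was narrow: it was lost without any 1 of 5 of the 6 samples, with a highest adjusted p = 0.112, and only leaving out inhibitor replicate 5 kept it (adjusted p = 0.0483). The KTFAKKD change passed on the panel-median scale without KTFAKWT replicate 3 (adjusted p = 0.0375) or KTFAKKD replicate 4 (adjusted p = 0.021). Set to the lineage genes neither passed, with -0.24 ± 0.20 in KTFAKKD (adjusted p = 0.323) and 0.47 ± 0.20 with the inhibitor (adjusted p = 0.0773). The difference between both changes did not pass as deposited (0.15 ± 0.25, adjusted p = 0.718), and was -0.16 ± 0.23 at a common panel median (adjusted p = 0.673).

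Cd163 had the smallest spread of any of the 750 genes as deposited. Its log2 value was 11.15, 11.17 and 11.29 in KTFAKKD, 11.24, 11.23 and 11.22 in inhibitor, 11.24, 11.13 and 11.19 in vehicle and 11.27, 11.09 and 11.21 in KTFAKWT samples. The SD over all 12 was 0.06 and the whole range 0.20, where the median gene had an SD of 0.61. The next genes in that order were Tnfrsf1a, a receptor for tumour necrosis factor, with an SD of 0.09, and Hmgb1, a chromatin protein, with 0.09. All 4 groups overlapped, and the log2 fold changes were 0.01 ± 0.07 in KTFAKKD (adjusted p = 0.884) and 0.04 ± 0.07 with the inhibitor (adjusted p = 0.624).

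The recovered counts of Cd163 were not level. They were 1593, 1390 and 1945 in KTFAKKD, against 3754, 2815 and 2874 in KTFAKWT samples. With the inhibitor they were 2133, 2114 and 1915, against 3226, 2504 and 3242 with vehicle. Neither pair overlapped. At a common panel median Cd163 fell by 1.04 in KTFAKKD (SE 0.11, adjusted p = 5.51e-06) and by 0.70 with the inhibitor (SE 0.11, adjusted p = 2.47e-04). There its SD over 12 samples was 0.48, where the median gene had 0.48. Set to the lineage genes Cd163 fell by 1.57 (SE 0.14, adjusted p = 5.44e-07) and by 0.68 (SE 0.14, adjusted p = 0.00156), and the difference between these passed (-0.89 ± 0.20, adjusted p = 0.00355). On the panel-median scale the difference was -0.34 ± 0.16 and did not pass (adjusted p = 0.134). After quantile normalization Cd163 had -0.58 ± 0.11 in KTFAKKD (adjusted p = 9.52e-04), but its inhibitor change did not pass (-0.21 ± 0.11, adjusted p = 0.156). The groups with the highest factors, KTFAKKD and inhibitor, were thus those with the lowest Cd163 counts. Which genes set the authors' factors is not given in the sources.

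**Figure D2:**
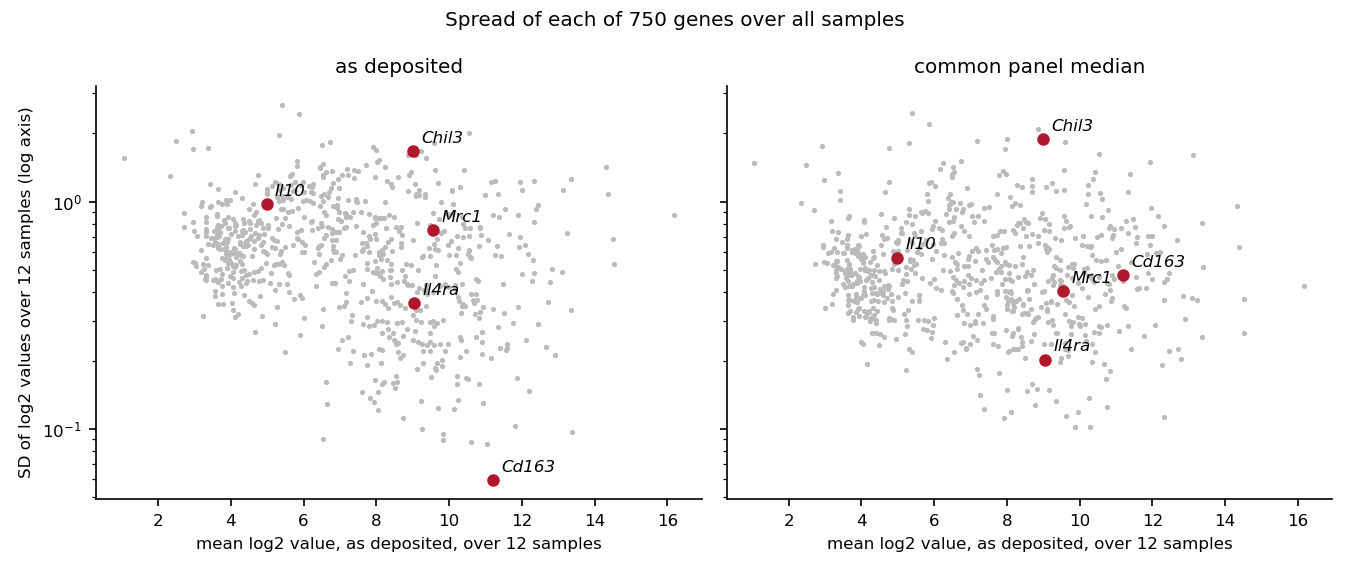
SD of the log2 values of each of 750 genes over 12 samples (log axis) against its mean log2 value, as deposited on the left and at a common panel median on the right, with the 5 genes in red. Cd163 lies below every other gene on the left (SD 0.06) and in the middle of the field on the right (SD 0.48), while Chil3 is near the top of both.

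Chil3 encodes Ym1, a secreted chitinase-like protein. Its log2 value was 6.29, 8.99 and 5.53 in inhibitor samples, against 9.72, 10.37 and 11.08 in vehicle samples. The groups did not overlap, but inhibitor replicate 5 stood well above the other two and within the range of untreated KTFAKWT samples. The recovered counts were 69, 446 and 37 with the inhibitor, against 1123, 1476 and 3014 with vehicle. The log2 fold change was -3.46 ± 0.81 (adjusted p = 0.00313), the second lowest of 750 genes. It was -4.20 ± 0.77 at a common panel median and -4.18 ± 0.79 set to the lineage genes (adjusted p = 6.73e-04 and 7.35e-04). Leaving out 1 sample at a time gave -4.48 (without inhibitor replicate 5) to -2.75 (without inhibitor replicate 6), and all 6 passed. Against untreated KTFAKWT samples it was -2.28 (adjusted p = 0.0282). Vehicle samples had 1.18 ± 0.81 against untreated KTFAKWT samples (adjusted p = 0.639). The order from low to high was inhibitor, KTFAKWT, KTFAKKD and vehicle, and only the step to vehicle was free of overlap.

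In KTFAKKD samples Chil3 had log2 values of 9.67, 9.13 and 9.63, against 9.38, 7.84 and 10.41 in KTFAKWT samples. The 3 KTFAKKD values lay inside the KTFAKWT range. The change did not pass on any of the 3 scales, with -0.79 ± 0.77 on the panel-median scale (adjusted p = 0.409) and -1.32 ± 0.79 set to the lineage genes (adjusted p = 0.17). The change in KTFAKKD exceeded that with the inhibitor by 3.72 ± 1.15 (adjusted p = 0.036), where 16.3% of all genes were called higher and 7.6% lower in this difference. At a common panel median it was 3.41 ± 1.09 (adjusted p = 0.0372), beside 11.2% and 14.8% of all genes. This call was lost on the lineage scale (2.86, adjusted p = 0.0622). As deposited it held without KTFAKKD replicate 4, inhibitor replicate 5, vehicle replicate 3 or KTFAKWT replicate 3, and was lost without any 1 of the other samples (highest adjusted p = 0.0853). Chil3 was the sixth noisiest within groups of the 602 genes with a mean recovered count of at least 20, with a pooled within-group SD of 1.18 where the median gene had 0.22.

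Some neutrophil genes varied between samples of the same group, as Chil3 did, while Camp was even. Mpo, the myeloperoxidase of primary granules made in neutrophil precursors, had 89, 1509 and 19 recovered counts in inhibitor replicates 4, 5 and 6, against 430, 12 and 39 in vehicle replicates 3, 4 and 9. Elane, neutrophil elastase of the same granules, had 37, 637 and 11, against 239, 12 and 51. S100a8, a calcium-binding protein abundant in neutrophils, had 1104, 6125 and 339, against 6676, 722 and 2407. The inhibitor sample with the most Chil3 was the one with the most of these 3 genes, which were picked after their values were seen, whereas the vehicle sample with the most of them, replicate 3, had the least Chil3 of its group. Camp, an antimicrobial peptide of neutrophil granules and the gene of the list with the smallest p, did not follow Chil3. It had 212, 188 and 143 counts with the inhibitor, against 66, 57 and 49 with vehicle, and rose by 2.23 ± 0.24 with the inhibitor and by 2.56 ± 0.24 in KTFAKKD (1.49 and 1.504 at a common panel median). The summed normalized counts of the 8 measured neutrophil genes ran from 914 to 10091 with the inhibitor, against 1078 to 5839 with vehicle, and from 1644 to 6112 in KTFAKKD against 785 to 2689 in KTFAKWT samples. Of these 8 genes 1 rose and 0 fell with the inhibitor as deposited (49.2% and 10.5% of all genes), with a median log2 fold change of 0.78 against 0.54 for all genes. Shifted to the panel median, 1 was higher and 1 lower (17.7% and 28.8%), with a median of 0.03 against -0.20. The lower gene was Cxcr2, at -1.63 (adjusted p = 0.0145). In KTFAKKD 3 rose and 0 fell as deposited (65.1% and 9.47%), and 1 was higher and 2 lower at the panel median (23.6% and 34.5%). Those 2 were Cxcr2 (-1.57, adjusted p = 0.014) and Cxcr1 (-1.37, adjusted p = 0.00764), the latter under 20 recovered counts in every sample. The part of these 8 neutrophil genes in the Chil3 values was not tested.

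**Figure D3:**
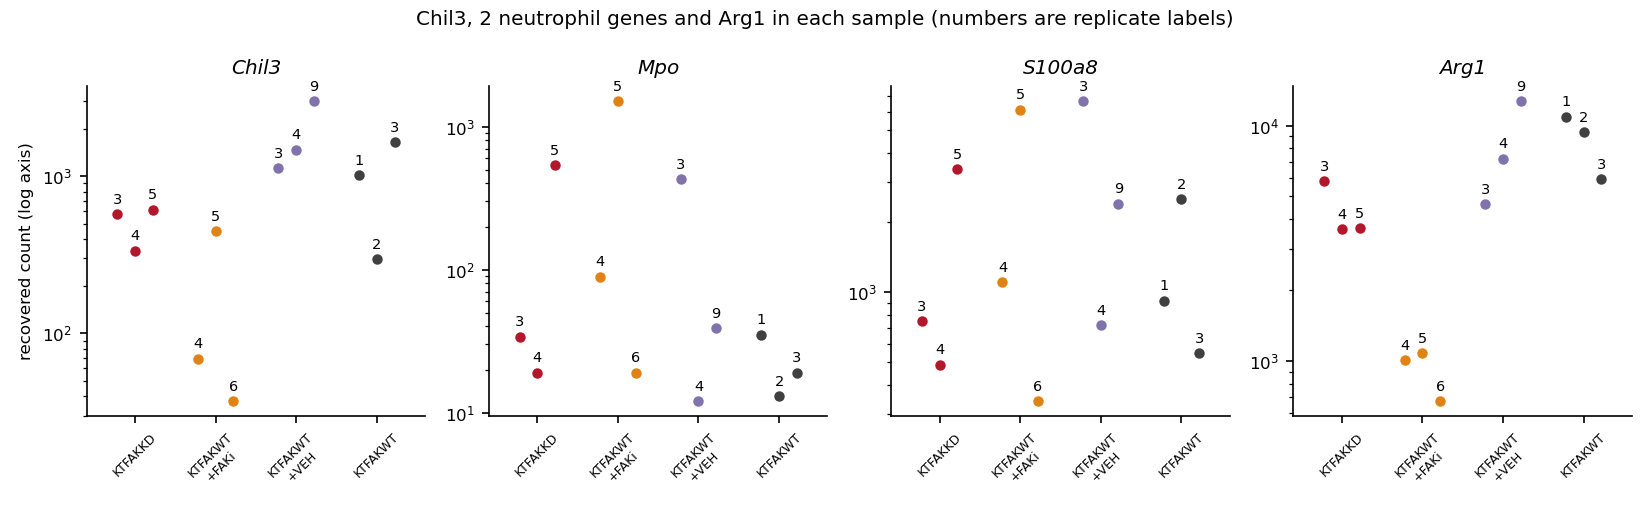
Recovered counts (log axis) of Chil3, of the neutrophil genes Mpo and S100a8 and of Arg1 in each sample, numbered by replicate label. Inhibitor replicate 5 is the highest of its group in all 4 genes, but for Arg1 the 3 inhibitor samples lie close together, at 673 to 1076.

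RefSeq promoter windows (GRCm38.p6, 250 bases before to 50 after the annotated start) were found for 4 of the 5 genes, and those of Chil3 and Mrc1 are shown because these genes moved in opposite directions with the inhibitor. Capitals mark matches on either strand to 4 sets of letters: the STAT6 element (TTC, any 4 bases, GAA), the STAT element TTCNNNGAA, the PU.1 box GAGGAA and the TATA box TATAAA. The Chil3 window lies on the minus strand at chr3:106167515-106167814 and the Mrc1 window on the plus strand at chr2:14229164-14229463.
Chil3: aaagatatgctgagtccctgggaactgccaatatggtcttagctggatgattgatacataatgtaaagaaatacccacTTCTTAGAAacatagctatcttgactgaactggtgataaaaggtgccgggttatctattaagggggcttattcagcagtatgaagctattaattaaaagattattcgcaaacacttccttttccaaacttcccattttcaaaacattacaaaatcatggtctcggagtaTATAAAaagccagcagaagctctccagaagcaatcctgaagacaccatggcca
Mrc1: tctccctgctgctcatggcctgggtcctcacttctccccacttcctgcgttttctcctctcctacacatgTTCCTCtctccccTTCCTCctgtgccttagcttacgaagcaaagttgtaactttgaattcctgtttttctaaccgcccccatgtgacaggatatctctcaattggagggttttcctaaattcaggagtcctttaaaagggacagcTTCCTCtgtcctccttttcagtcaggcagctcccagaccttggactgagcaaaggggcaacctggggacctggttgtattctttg
Chil3 held 1 STAT element and 1 TATA box, and Mrc1 held 3 PU.1 boxes, all read on the opposite strand as TTCCTC. Counted from the annotated start, the Chil3 STAT element lay at -172 to -164 and its TATA box at -3 to 2, across the start. The windows of Cd163 and Il4ra held no match to any of the 4. Among 32851 windows of this length the STAT6 element occurred in 6.95%, the STAT element in 8.3%, the PU.1 box in 28.3% and the TATA box in 13.6%. No binding was measured in this series, so the matches describe letters in these windows.

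Il10 encodes interleukin-10, which damps macrophage and T-cell activation. KTFAKKD samples had log2 values of 6.26, 6.69 and 6.01, against 3.98, 4.09 and 3.81 in KTFAKWT samples. The groups were far apart, and Il10 ranked 54th from the top of 750 genes (adjusted p = 1.75e-05). Its counts were low, with 54, 62 and 50 recovered in KTFAKKD against 24, 22 and 17 in KTFAKWT samples, so counting error weighs more on it than on the other genes. On the panel-median scale the rise was 1.31 ± 0.25 (adjusted p = 7.42e-04), and it passed with any 1 sample of these groups left out. Set to the lineage genes it was 0.78 ± 0.25 (adjusted p = 0.015).

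With the inhibitor Il10 had 5.50, 5.43 and 4.71, against 4.44, 4.80 and 4.05 with vehicle. The groups overlapped. The deposited change of 0.79 ± 0.28 passed (adjusted p = 0.0291), but not without inhibitor replicate 4 or 5 or vehicle replicate 3 or 9, and not when only these groups were fitted (adjusted p = 0.056). At a common panel median it was 0.05 ± 0.25 (adjusted p = 0.92), from recovered counts of 40, 38 and 21 against 29, 31 and 23. The change in KTFAKKD exceeded that with the inhibitor by 1.57 ± 0.39 as deposited (adjusted p = 0.0138) and by 1.26 ± 0.36 at a common panel median (adjusted p = 0.0229), but did not pass set to the lineage genes (0.71 ± 0.35, adjusted p = 0.127). At a common panel median it also did not pass without KTFAKKD replicate 4, inhibitor replicate 6, vehicle replicate 4 or KTFAKWT replicate 3 (highest adjusted p = 0.0616). The order from low to high was KTFAKWT, vehicle, inhibitor and KTFAKKD, and only the last step was free of overlap.

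As deposited, most listed genes of B and T cells, which can also make interleukin-10, were higher in KTFAKKD and inhibitor samples than in their controls. At a common panel median the B-cell and T-cell lists had medians of 1.37 and 0.68 in KTFAKKD, where Il10 had 1.31. With the inhibitor the 2 lists had 1.60 and 0.75 on that scale, while Il10 had 0.05 and did not pass. The medians of all genes were -0.10 and -0.20. The summed normalized counts of 7 B-cell genes were 2728 to 5821 in KTFAKKD, against 595 to 936 in KTFAKWT samples. They were 3596 to 4908 with the inhibitor, against 677 to 1147 with vehicle. For 7 T-cell genes the sums were 351 to 497 in KTFAKKD against 95.6 to 127 in KTFAKWT samples, and 273 to 389 with the inhibitor against 89.9 to 157 with vehicle. All 7 genes of either list rose in KTFAKKD as deposited (65.1% of all genes), and on the panel-median scale 7 B-cell and 6 T-cell genes did (23.6%). With the inhibitor 6 B-cell and 7 T-cell genes rose as deposited (49.2%), and on the panel-median scale 4 and 3 were higher (17.7%) and 1 and 0 lower (28.8%). Foxp3, which marks regulatory T cells, was under 20 recovered counts in every sample. Other genes of these lists also had low counts, at 10 to 39 for Cd8a, 12 to 41 for Cd247, 14 to 42 for Cd3e and 11 to 55 for Cr2. Ms4a1, a B-cell gene, had 202 to 1942. The part of B and T cells in the Il10 values was not tested.

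Markers of further cell types also moved with the groups, and their part in the values of the 5 genes was not tested. Of 9 mast cell and eosinophil genes 6 were measured, with sums of 5313 to 11701 in KTFAKKD against 665 to 2331 in KTFAKWT samples and of 3496 to 4333 with the inhibitor against 209.96 to 1038 with vehicle. As deposited 4 of the 6 rose in KTFAKKD and 5 with the inhibitor, beside 65.1% and 49.2% of all genes, and at a common panel median 3 did in each, beside 23.6% and 17.7%. Of 9 epithelial and tumour genes 4 were measured, with sums of 2177 to 2422 in KTFAKKD against 5136 to 5222 in KTFAKWT samples and of 7342 to 8021 with the inhibitor against 4246 to 5383 with vehicle. Most of these sums was Msln, with mean recovered counts of 6281 with the inhibitor and 5260 with vehicle, against 233 and 772 for Itgb4. All 4 fell in KTFAKKD as deposited (9.47% of all genes) and at a common panel median (34.5%). With the inhibitor 2 rose and 2 fell as deposited (49.2% and 10.5%), and 0 were higher and 2 lower at a common panel median (17.7% and 28.8%). Msln (0.85) and Cdh1 (0.82) rose as deposited, and Epcam (-1.27) and Itgb4 (-1.11) fell. At a common panel median Epcam had -2.01 and Itgb4 -1.85. All 4 measured dendritic cell genes of 7 listed rose in KTFAKKD and 1 with the inhibitor as deposited (65.1% and 49.2% of all genes). At a common panel median 0 passed in KTFAKKD, beside 23.6% higher and 34.5% lower over all genes. With the inhibitor 0 passed there, beside 17.7% and 28.8%. Their recovered counts were low, at 17 to 31 for Flt3, 9 to 21 for Ccr7, 10 to 25 for Xcr1 and 14 to 34 for Itgax.

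**Figure D4:**
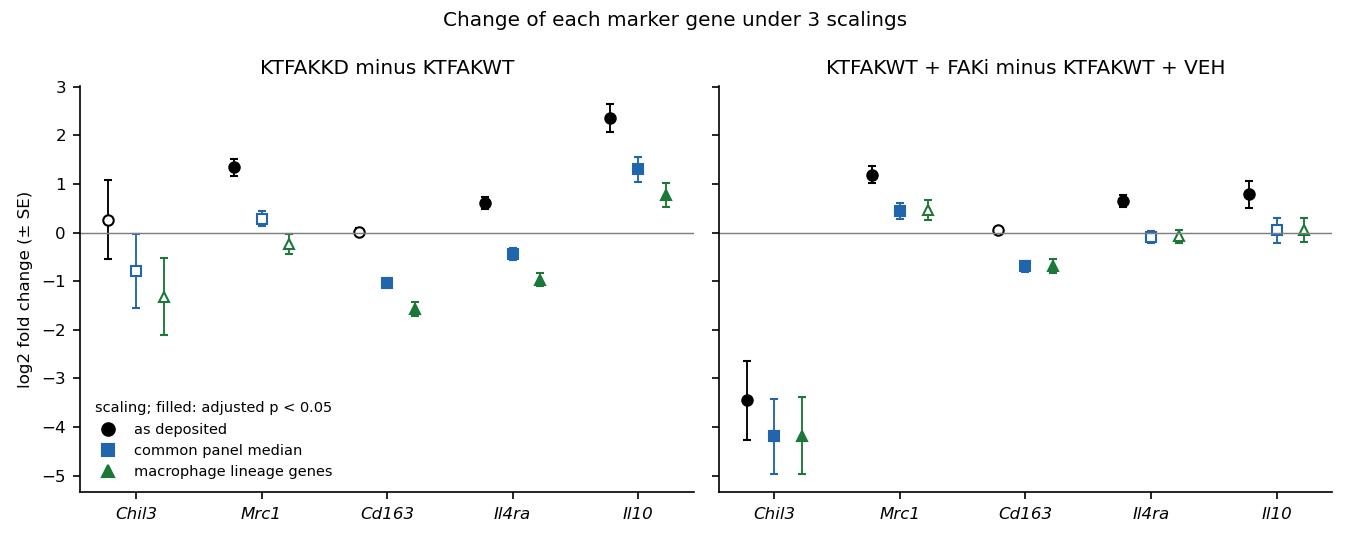
Log2 fold changes (± moderated SE, n = 3 and 3) of the 5 genes in KTFAKKD against KTFAKWT (left) and in inhibitor against vehicle samples (right), as deposited, at a common panel median and set to 8 macrophage lineage genes; filled symbols have an adjusted p under 0.05. Chil3 is lower with the inhibitor and Il10 higher in KTFAKKD on all 3 scales, while Cd163 goes from level to lower and Il4ra in KTFAKKD changes sign.

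Of 19 other genes of alternative activation listed, 12 were measured, and their calls went in both directions. In KTFAKKD 6 rose, 1 fell and 5 did not pass as deposited (65.1% higher and 9.47% lower over all genes), with a median log2 fold change of 1.09 against 0.95 for all genes, and at a common panel median 3 were higher and 4 lower (23.6% and 34.5% of all genes). With the inhibitor 4 rose, 2 fell and 6 did not pass (49.2% and 10.5%), with a median of 0.44 against 0.54, and on the panel-median scale 3 were higher and 4 lower (17.7% and 28.8%). The genes higher at a common panel median were the same 3 in both comparisons, which share no samples. They were Cd36, a scavenger receptor for oxidized lipids (2.13 and 2.24), Irf4, a transcription factor needed for this state (1.33 and 1.12), and Clec7a, the glucan receptor dectin-1 (1.48 and 0.70). The lineage genes Csf1r (1.15 and 1.12), C1qa (1.10 and 0.45) and C1qb (1.12 and 0.64) were also higher there in both, while 3 other lineage genes were lower with the inhibitor. The part of cell types in these changes was not tested.

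Arg1, the arginase that with Chil3 defines the state in mouse, had log2 values of 10.16, 10.26 and 9.71 with the inhibitor, against 11.77, 12.66 and 13.16 with vehicle. It fell by 2.49 (SE 0.32, adjusted p = 5.59e-05). In KTFAKKD it had -0.04 ± 0.32 as deposited (adjusted p = 0.909) and -1.10 on the panel-median scale (adjusted p = 0.0149). Unlike Chil3, Arg1 was even among the inhibitor samples, with recovered counts of 1006, 1076 and 673. Il1rn, the interleukin-1 receptor antagonist, fell in both comparisons as deposited, by 1.87 in KTFAKKD (SE 0.09, adjusted p = 1.18e-07) and by 0.77 with the inhibitor (SE 0.09, adjusted p = 2.16e-05). Ccl24, a chemokine for eosinophils, was level as deposited (-0.04 and 0.04) and lower at a common panel median in both (-1.09 and -0.70), the pattern of Cd163.

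Of 9 genes of the interleukin-4 and interleukin-13 axis, 6 rose and 1 fell in KTFAKKD as deposited (65.1% and 9.47% of all genes), and 1 was higher and 4 lower on the panel-median scale (23.6% and 34.5%). With the inhibitor 5 rose and 0 fell (49.2% and 10.5%), and at a common panel median 0 were higher and 1 lower (17.7% and 28.8%). Set to the lineage genes, 0 were higher and 8 lower in KTFAKKD (10% and 49.6%), with a median of -1.03 against -0.63 for all genes. With the inhibitor 0 were higher and 1 lower on that scale (17.3% and 26.4%). The medians as deposited were 0.55 and 0.48, against 0.95 and 0.54 for all genes. Stat6, the factor that carries the signal, had 0.59 ± 0.09 in KTFAKKD (adjusted p = 8.22e-05) and 0.61 ± 0.09 with the inhibitor (adjusted p = 8.27e-05), and turned to -0.46 and -0.13 on the panel-median scale (adjusted p = 0.00145 and 0.309). Il13ra1, the partner of Il4ra in the receptor for interleukin-13, was the only gene of the list that fell as deposited in KTFAKKD (-0.43 ± 0.12, adjusted p = 0.00838), and it was lower at a common panel median in both (-1.48 and -0.62). Jak3, a kinase of the common gamma chain, had 1.002 ± 0.12 and 0.87 ± 0.12 as deposited, and -0.05 and 0.13 on the panel-median scale without passing. Jak1, a kinase of both receptor families, had 0.65 ± 0.08 with the inhibitor as deposited (adjusted p = 4.18e-05) and -0.09 at a common panel median (adjusted p = 0.507). The interleukin-4 gene itself, Il4, had 6 to 20 recovered counts and a change of 2.13 ± 0.33 in KTFAKKD (adjusted p = 1.42e-04, and 1.08 on the panel-median scale, adjusted p = 0.0196). Il13 and Il13ra2 also had low counts, with group means of 13.7 to 18.7 and of 11.7 to 17.3.

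Of 6 listed genes of the interleukin-10 axis 5 were measured, and 5 rose in KTFAKKD as deposited (65.1% of all genes), but at a common panel median 1 was higher and 3 lower (23.6% and 34.5%). With the inhibitor 4 rose as deposited (49.2%), and on the panel-median scale 1 was higher and 1 lower (17.7% and 28.8%). The medians as deposited were 0.41 in KTFAKKD and 0.73 with the inhibitor, against 0.95 and 0.54 for all genes. The gene higher on both scales in both comparisons was Il10ra, the ligand-binding chain of the interleukin-10 receptor, with 2.09 ± 0.18 in KTFAKKD (adjusted p = 1.86e-06) and 1.59 ± 0.18 with the inhibitor (adjusted p = 2.22e-05), and 1.04 and 0.85 at a common panel median. Stat3, which the receptor activates, had 0.82 ± 0.09 with the inhibitor as deposited (adjusted p = 1.92e-05) and 0.08 on the panel-median scale (adjusted p = 0.608). Tyk2, another kinase of the receptor, had 0.70 ± 0.21 in KTFAKKD (adjusted p = 0.00984), and -0.35 at a common panel median (adjusted p = 0.107).

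**Figure D5:**
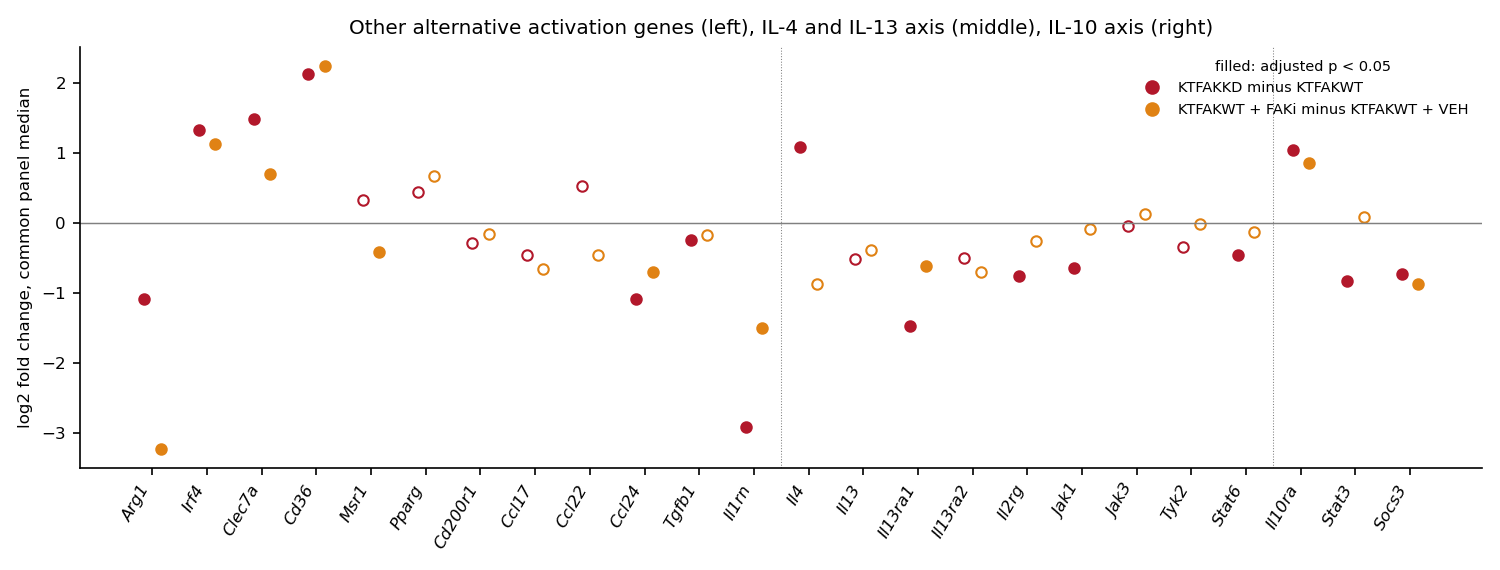
Log2 fold changes at a common panel median of 12 other alternative activation genes, 9 genes of the interleukin-4 and interleukin-13 axis and 3 of the interleukin-10 axis (Jak1 and Tyk2 are drawn once), in KTFAKKD against KTFAKWT (red) and in inhibitor against vehicle samples (orange); filled points have an adjusted p under 0.05. Arg1 is lowest with the inhibitor (-3.23), Il1rn is lowest in KTFAKKD (-2.92), and Cd36, Irf4, Clec7a and Il10ra are higher in both comparisons.

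For classical activation, the opposite state driven by interferon-gamma and microbial signals, all 16 listed genes were measured. In KTFAKKD 12 rose and 0 fell as deposited (65.1% and 9.47% of all genes), with a median of 1.42 against 0.95 for all genes, and on the panel-median scale 5 were higher and 3 lower (23.6% and 34.5%). With the inhibitor 7 rose and 3 fell (49.2% and 10.5%), with a median of 0.41 against 0.54, and at a common panel median 4 were higher and 4 lower (17.7% and 28.8%). Cd40, a costimulatory receptor, had 3.24 ± 0.17 in KTFAKKD (adjusted p = 1.18e-07) and 2.22 ± 0.17 with the inhibitor (adjusted p = 2.06e-06), Cd86, a ligand of CD28, had 2.16 ± 0.19 and 1.48 ± 0.19, and Irf5, a transcription factor of this state, had 1.44 ± 0.16 and 1.24 ± 0.16. All 3 were also higher on the panel-median scale in both comparisons. Set to the lineage genes, Cd40 and Cd86 stayed higher in both, Cd86 narrowly in KTFAKKD (0.58, adjusted p = 0.0409). Irf5 was higher there only with the inhibitor (0.52, adjusted p = 0.00445), and had -0.14 in KTFAKKD (adjusted p = 0.36). On that scale 2 of the 16 genes were higher and 4 lower in KTFAKKD (10% and 49.6% of all genes). With the inhibitor 5 were higher and 4 lower (17.3% and 26.4%). The 3 genes that fell with the inhibitor as deposited were Cxcl10 (-2.62 ± 0.49, adjusted p = 6.62e-04), Il6 (-1.53 ± 0.41, adjusted p = 0.00698) and Ccl5 (-0.47 ± 0.10, adjusted p = 0.00225). At a common panel median they had -3.36, -2.27 and -1.21. In KTFAKKD Il6 rose by 2.11 ± 0.41 as deposited (adjusted p = 6.92e-04), while Cxcl10 (-0.19) and Ccl5 (0.12) did not pass. Some genes of this list had low counts. Nos2 and Il23a rose in KTFAKKD as deposited, from mean recovered counts of 17.7 and 20.7 against 18.3 and 21.7 in KTFAKWT samples. Neither passed there at a common panel median. The part of cell types in the changes of these 16 genes was not tested.

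Likeness of other genes to each of the 5 was measured as the mean absolute difference between log2 profiles, each gene centred on its own mean over the 12 samples, among 601 other genes with a mean recovered count of at least 20. A factor shared by all genes of a sample drops out of this measure. Il4ra was closest to Tfeb (0.09), Traf6 (0.09) and Myd88 (0.10), where the median gene was 0.40 away. Cd163 was closest to Cd47 (0.07), Map2k2 (0.07) and Vim (0.08), against a median of 0.49. Mrc1 was closest to Ccr4 (0.17), Mr1 (0.19) and Bcl2 (0.20), against 0.51, and Il10 to Cfb (0.20), Cybb (0.20) and Tnfsf11 (0.21), against 0.62. Chil3 had no close match: its nearest genes, Ccl12, Pdcd1 and Birc5, were 0.79, 0.86 and 0.89 away, against a median of 1.41. Among the 5 genes themselves the closest pair was Cd163 and Il4ra (0.30) and the farthest Chil3 and Il10 (1.63), and none of the 5 was among the 3 genes nearest to another. With the root mean square difference instead, 3 of the 3 nearest genes were shared for Cd163, 2 for Il4ra and 1 each for Chil3, Mrc1 and Il10.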

How the data were processed

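Log2 values of 750 genes in 12 samples were analysed as the authors deposited them. Which software, background handling or reference genes they used is not given in the sources. Samples were grouped by title. Replicates of a group all differed by more than counting error (chi-square over its degrees of freedom, 8.35 to 59.6). All genes and samples entered 1 model of the 4 group means in limma 3.58.1 in R 4.3.3, without filter or pseudocount. The settings were eBayes with trend, two-sided tests and Benjamini-Hochberg over 750 genes at 0.05. Errors of fold changes are moderated SEs. Adjusted p-values are from this model unless another scale, sample set or setting is named. Total count scaling added a pseudocount of 1 before log2. The script was tested on simulated data. The smallest p of an exact permutation test of 3 against 3 samples is 0.1, so none was run. Changes at a common panel median and set to 8 macrophage genes come from the same fit on shifted values. The 5 genes, the gene lists and the rule for named genes (up to 3 per list and comparison by smallest p) were chosen with earlier results of these data known. Mpo, Elane, S100a8, Cxcr1, Cxcr2, Foxp3, Cd14, Itgam, Fcgr1, Cd68, Ccl24 and Il13ra1 lie outside that rule and were picked after their values were seen. Ccl5, Cdh1, Cxcl10 and Il6, and Arg1 in KTFAKKD, also lie outside it and were picked in the same way, as were Tnfrsf1a and Hmgb1. Nos2, Il23a, Il13 and Il13ra2 were likewise picked after their values were seen. Figures were drawn with matplotlib 3.10.9.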

Additional observations from a re-analysis of the deposited data

Results flagged for a closer look

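The change of Chil3 differed between the comparisons, as tested by the difference of the contrasts: in KTFAKKD against KTFAKWT it exceeded the change with the inhibitor against vehicle by a log2 value of 3.72 (SE 1.15, limma adjusted p = 0.036). The KTFAKKD change was 0.26 and the inhibitor change -3.46. This Chil3 call held in only 4 of 12 fits that left out 1 sample. It was lost on the lineage scale (adjusted p = 0.0622) and with eBayes without trend. The change of Il10 differed in the same test, by 1.57 (SE 0.39, adjusted p = 0.0138), with changes of 2.36 in KTFAKKD and 0.79 with the inhibitor. The Il10 call held in all 12 fits without 1 sample as deposited. It was lost on the lineage scale (adjusted p = 0.127) and by quantiles (adjusted p = 0.0596).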

How the results depend on the processing

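Settings without another scaling, control or sample set changed few results: the filter on the lowest 25% of genes changed no call, and eBayes without trend only the Chil3 difference (3.72, adjusted p = 0.0539). In KTFAKKD against KTFAKWT, scaling by panel median, quantiles, lineage genes and total counts gave -0.79, -0.44, -1.32 and -0.75 for Chil3 (also -0.33 against untreated and vehicle samples together), -1.04, -0.58, -1.57 and -1.004 for Cd163, and -0.44, -0.064, -0.97 and -0.41 for Il4ra; Mrc1 had 0.29, -0.24 and 0.32 by panel median, lineage genes and total counts and kept its call by quantiles. With the inhibitor the same 4 gave -0.70, -0.21, -0.68 and -0.57 for Cd163, -0.090, 0.18, -0.073 and 0.035 for Il4ra, and 0.046, 0.14, 0.063 and 0.17 for Il10 (0.79 in a fit of only these groups); Mrc1 lost its call on the lineage scale (0.47). In the difference they gave -0.16, -0.039, -0.71 and -0.25 for Mrc1. There the lineage scale gave 2.86 for Chil3, -0.89 for Cd163, -0.90 for Il4ra and 0.71 for Il10, quantiles 1.05 for Il10 and total counts -0.43 for Cd163. By quantiles the Cd163 change with the inhibitor did not pass (adjusted p = 0.156), nor did the Il4ra change in KTFAKKD (adjusted p = 0.676). The cause of these shifts between scalings was not tested. Leaving out single samples gave -0.42 to 0.86 for Chil3 and -0.038 to 0.053 for Cd163 in KTFAKKD, 0.60 to 1.04 for Il10 with the inhibitor (2 of 6 passed), -0.056 to 0.035 for Cd163 between vehicle and untreated, and in the difference 3.01 to 4.74 for Chil3 (4 of 12 passed), -0.028 to 0.34 for Mrc1, -0.082 to 0.0086 for Cd163 and -0.18 to 0.048 for Il4ra. On the panel-median scale, in fits added after seeing the data, they gave -0.10 to 0.24 for Il10 with the inhibitor, -0.30 to 0.0079 for Mrc1 in the difference, and 2.70 to 4.37 for Chil3 there (4 of 12 passed). Against untreated KTFAKWT samples, the inhibitor change of Il4ra on the panel-median scale passed at -0.31. Over all genes, calls higher and lower in KTFAKKD were 488 and 71 as deposited, 177 and 259 by panel median, 198 and 219 by quantiles, 75 and 372 on the lineage scale and 187 and 248 by total counts; with the inhibitor they were 369 and 79, 133 and 216, 177 and 150, 130 and 198 and 157 and 176. In the difference they were 122 and 57 as deposited, with 25 higher on the lineage scale and 73 by total counts, and 111, 114, 246 and 151 lower by panel median, quantiles, lineage genes and total counts. Between vehicle and untreated samples, fits without 1 sample called 0 to 4 genes higher. The low counts of Il10, 17 to 62, limit its precision. No alternative pseudocount was run on the deposited scale, as those values were already log2. No paired analysis was possible because the groups compared share only 1 replicate number in each comparison.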
